A study of Bos taurus with 8 samples.

Results

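The 200 genes described here had FPKM of at least 5 in 7 cattle libraries, from testis, brain, uterus, mammary gland and 3 parts of the gut, and were low or listed at 0 in nucleated blood cells. They were taken from 36801 loci, of which 24886 carried an Ensembl transcript identifier and are called genes. Of these genes, 21800 spanned at least 300 bases and under 300 kb, 21785 of them held no failed estimate or overflow in any comparison, and 5746 of those reached an FPKM of at least 5 in the 7 libraries other than nucleated blood cells. FPKM is the number of fragments per kilobase of transcript, scaled by sequencing depth. The 5746 filtered genes were put in order by the lowest FPKM of the 7 libraries plus 1, divided by the FPKM in nucleated blood cells plus 1, and the first 200 were kept. The members were thus chosen by their FPKM in blood and by their lowest FPKM elsewhere, and these values are given as a description only. The other 5546 filtered genes serve as the comparison.

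RNA from 8 tissues was sequenced, with 1 library each, in a study that set DNA methylation beside transcript levels. The libraries came from nucleated blood cells, rumen (the largest forestomach), ileum (the last part of the small intestine), abomasum (the glandular stomach), mammary parenchyma, intercaruncular uterus (the lining between the sites of placental attachment), frontal cortex and whole testes. No treatment or genotype was given for any library. The study drew its tissues from a Hereford cow and relatives, and its methylation samples of the same tissues were adult for testis, uterus and blood, juvenile for mammary gland, cortex, abomasum and ileum, and fetal for rumen. The age and animal of each RNA library are not given in the sources used here. Tissue, age, sex and animal therefore cannot be told apart, and no difference between libraries has a replicate check. The scaled depth recovered from the FPKM values was 12007000 reads in nucleated blood cells and 6021000 to 15511000 in the 7 other libraries, so blood was not the shallowest library. A count of 0 allows up to 3 reads. At this depth they correspond to 0.250 FPKM in blood over an effective length of 1000 bases. Effective length is the number of bases at which a fragment can start, which is shorter than the transcript. In blood 91 of the 200 genes lay below that level. On a transcript of 1000 bases the level would be higher, and it was not computed. These figures cover counting error only.

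Nucleated cells of the blood are white cells, since the circulating red cells of cattle carry no nucleus. White cells travel singly and hold few lasting contacts with one another. Many solid organs, though not all in the same measure, hold epithelium, connective tissue, smooth muscle and vessel walls. Cells of these tissues are joined to each other or to a protein matrix that they secrete. Genes for the matrix, for cell junctions and for the contractile apparatus are textbook examples of genes used in most organs and little in white cells. The table pairs none of the 227 identifiers of the 200 genes with a symbol, and 0 identifiers matched an entry of RefSeq's cattle genes (assembly ARS-UCD2.0). Which of the 200 genes belong to those groups was therefore not analysed here, nor were white cell markers. Genes are given by their position on UMD3.1, the assembly of the study.

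The order was led by a gene on chromosome 7 (64877755 to 64910051, ENSBTAT00000019758). Its FPKM was 1006 in uterus, 609 in whole testes, 504 in rumen, 383 in ileum, 325 in mammary gland, 273 in abomasum and 215 in frontal cortex, and it was 1.01 in nucleated blood cells. No other of the 200 genes had so high a lowest level. The next gene spans only 665 bases on chromosome 29 (44770865 to 44771529, ENSBTAT00000064987). It was listed at 0 in blood, with an FPKM of 666 in rumen, 142 in frontal cortex, 98.4 in ileum, 90.8 in uterus, 90.3 in mammary gland, 81.9 in whole testes and 60.9 in abomasum. Rumen thus stood well above the 6 other solid tissues, which ran from 60.9 to 142 FPKM.

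The third gene, also on chromosome 29 (48167154 to 48194210), was listed at 0 in blood. Its FPKM was 194 in rumen, 126 in abomasum, 105 in uterus, 92.4 in whole testes, 82.3 in mammary gland, 78.8 in frontal cortex and 55.8 in ileum. A gene on chromosome 18 (52965112 to 52977208) had 254 FPKM in mammary gland, 140.1 in uterus, 129 in whole testes, 90.4 in rumen, 81.9 in abomasum, 78.2 in frontal cortex and 65.9 in ileum, against 0.385 in blood. In these genes the highest solid tissue was 3.48 and 3.86 times the lowest, while blood was at or near 0.

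Rumen and ileum were high for the fifth gene, on chromosome 15 (28318411 to 28352995). It reached 2422 FPKM in rumen and 1967 in ileum, against 567 in mammary gland, 348 in abomasum, 334 in whole testes, 162 in frontal cortex and 159.8 in uterus. Blood held 3.13 FPKM. This gene shared its interval with another annotated locus that had 18.9 FPKM in blood, a point taken up below.

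Uterus was highest for both of the following genes. On chromosome 5 (27044001 to 27048226) the FPKM was 320.0 in uterus, 158 in mammary gland, 118 in frontal cortex, 103 in whole testes, 92.3 in ileum, 89.7 in rumen, 41.0 in abomasum and 0.185 in blood. A long gene on chromosome 12 (89009656 to 89166026) had 136 FPKM in uterus, 81.4 in ileum, 59.3 in whole testes, 57.0 in rumen, 44.5 in mammary gland, 43.1 in abomasum, 33.1 in frontal cortex and 0.0615 in blood. Each had a close neighbour among the 200 genes.

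Frontal cortex was highest for the eighth gene, on chromosome 6 (104149457 to 104203199), with 1082 FPKM against 559 in ileum, 390.2 in uterus, 144 in abomasum, 101 in rumen, 55.4 in whole testes, 40.5 in mammary gland and 0.326 in blood. On chromosome 22 a short gene (48611898 to 48613043) had 241 FPKM in rumen, 105 in ileum, 102 in abomasum, 62.5 in uterus, 60.8 in mammary gland, 52.0 in whole testes, 39.9 in frontal cortex and 0.312 in blood. The tenth gene, on chromosome 5 (116616200 to 116695692), had 346 FPKM in uterus, 303 in ileum, 178 in mammary gland, 152 in abomasum, 149 in rumen, 63.9 in whole testes, 34.0 in frontal cortex and 0.182 in blood. No single solid tissue was the highest, or the lowest, throughout these first 10 genes.

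**Figure D1:**
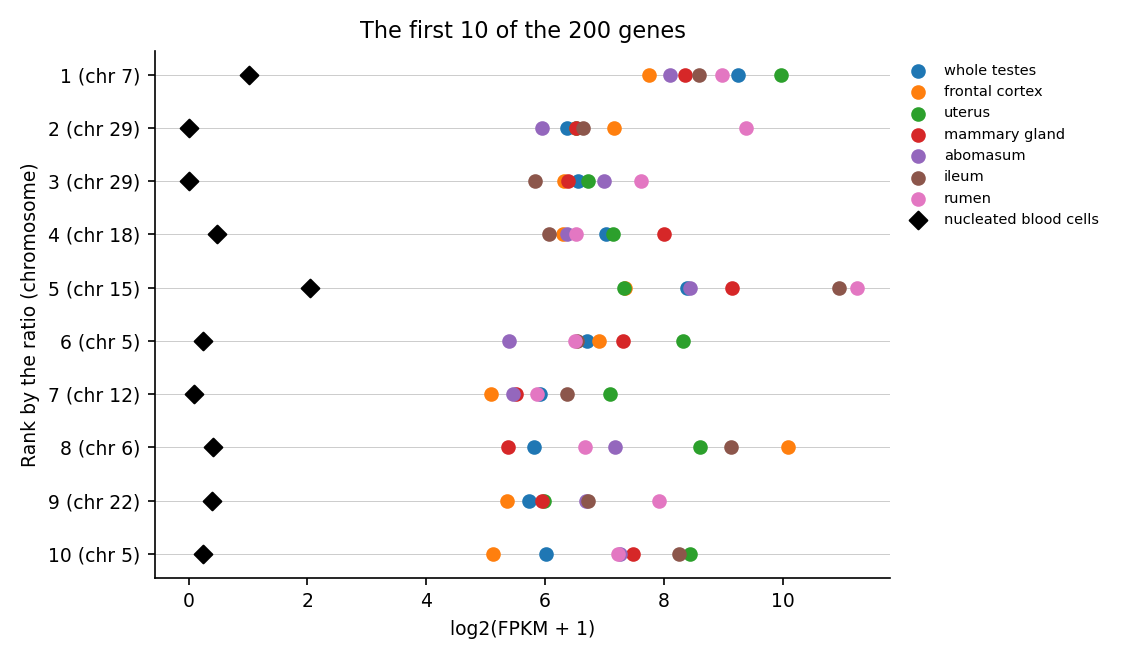
The first 10 of the 200 genes, by rank and chromosome on the vertical axis, with log2(FPKM + 1) on the horizontal axis. Each circle is 1 solid tissue library and the black diamond is the nucleated blood cell library, which lies to the left of the 7 circles in every row. Blood is at 0 for the genes of ranks 2 and 3.

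Low in blood did not mean absent for all 200 genes. In nucleated blood cells 25 were listed at 0, 27 were above 0 and under 0.1 FPKM, 110 had 0.1 to under 1 FPKM, and 38 had at least 1 FPKM. The median was 0.317 FPKM and the highest value 14.5 FPKM, at a gene on chromosome 28 (41912281 to 41915064). That gene had 605 FPKM in mammary gland, 417 in rumen, 325 in frontal cortex, 195 in uterus, 173 in ileum, 129 in abomasum and 114 in whole testes. It was the only 1 of the 200 with at least 5 FPKM in blood, and it entered the list through its high level elsewhere. These blood levels depend on the rule: the median was 1.18 FPKM, with 14 genes at 0, when at least 10 FPKM was asked of the solid tissues, 0.966 FPKM in a list of 400 genes and 0.601 FPKM with a pseudocount of 5 in place of 1. In bulk libraries like these, a low level from few cells of a type cannot be told apart from one due to less RNA per cell.

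The lowest level in the 7 solid tissues had a median of 13 FPKM over the 200 genes, with a range of 5.13 to 215 FPKM. Over the other filtered genes the same median was 13.3 FPKM. The ratio that set the order had a median of 9.44 and fell from 107 at the first gene to 5.62 at the last. It was at least 10 for 90 genes, which is all of the filtered genes with such a ratio (1.57% of 5746), and at least 20 for 19. A ratio of at least 2 was met by 7.31% of the filtered genes, and blood was below the lowest other library for 19.1%. Because the rule used this contrast, nothing is read from these shares.

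Genes on either side of the end of the list were alike. The last 3 inside lie on chromosome 15 (44290659 to 44460496), chromosome 15 (40748739 to 40902329) and chromosome 2 (7317290 to 7357057). Their lowest levels were 15.8, 5.74 and 7.94 FPKM, their blood levels 1.97, 0.196 and 0.590 FPKM, and their ratios 5.67, 5.63 and 5.62. The first 3 outside lie on chromosome 4 (11840470 to 11911816), chromosome 17 (12906376 to 12988455) and chromosome 1 (141029788 to 141101502), with lowest levels of 6.79, 5.99 and 6.19 FPKM, blood levels of 0.394, 0.251 and 0.291 FPKM, and ratios of 5.59, 5.58 and 5.57. In all, 44 filtered genes under 1 FPKM in blood stayed outside the list because their lowest level elsewhere was too small for the ratio.

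**Figure D2:**
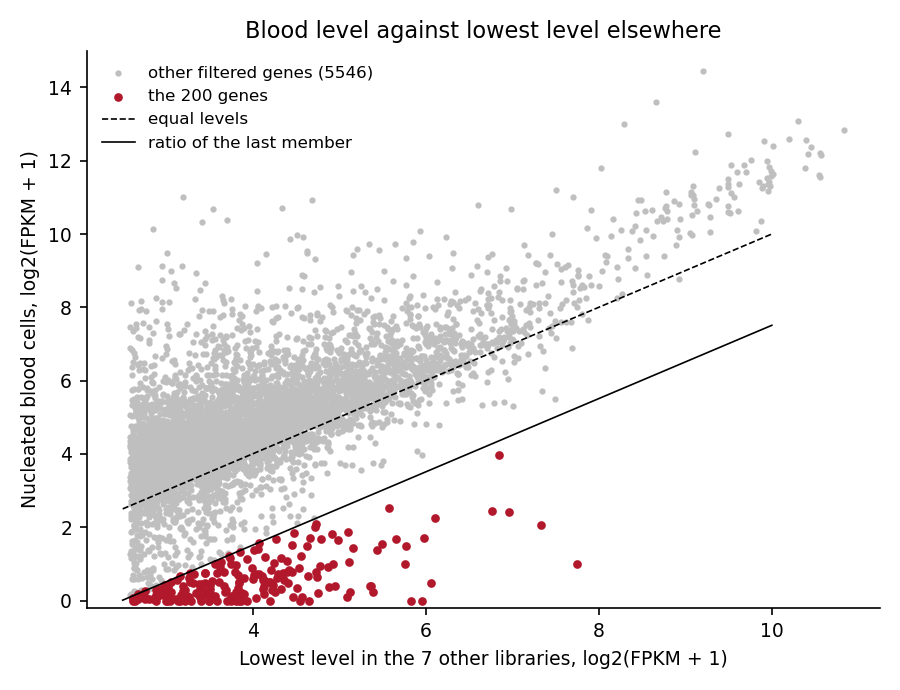
Each point is 1 of 5746 filtered genes, with the lowest level of the 7 solid tissue libraries on the horizontal axis and the level in nucleated blood cells on the vertical axis, both as log2(FPKM + 1). The 200 genes (red) lie on or under the solid line, the ratio of 5.62 of the last gene, and most other genes (grey) lie above the dashed line of equal levels.

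The same rule was applied to each library in turn to see whether other tissues lacked a like number of genes. At the ratio of the last of the 200 genes, 200 of 5746 filtered genes were low in nucleated blood cells alone. Frontal cortex gave 12 of 5566, whole testes 3 of 5502, uterus 2 of 5305, rumen 2 of 5416, abomasum 1 of 5347, ileum 1 of 5284 and mammary gland 0 of 5296. At a ratio of at least 2 the counts came closer, with 420 genes in blood, 223 in whole testes and 219 in frontal cortex, against 2 to 40 in the 5 other libraries. When every gene below all 7 other libraries was counted, however small the gap, frontal cortex held 1534, whole testes 1267 and blood 1096. The first of these cuts was set by the list itself, so its count in blood was fixed beforehand and nothing is read from it. Each library had its own filtered genes in this count.

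**Figure D3:**
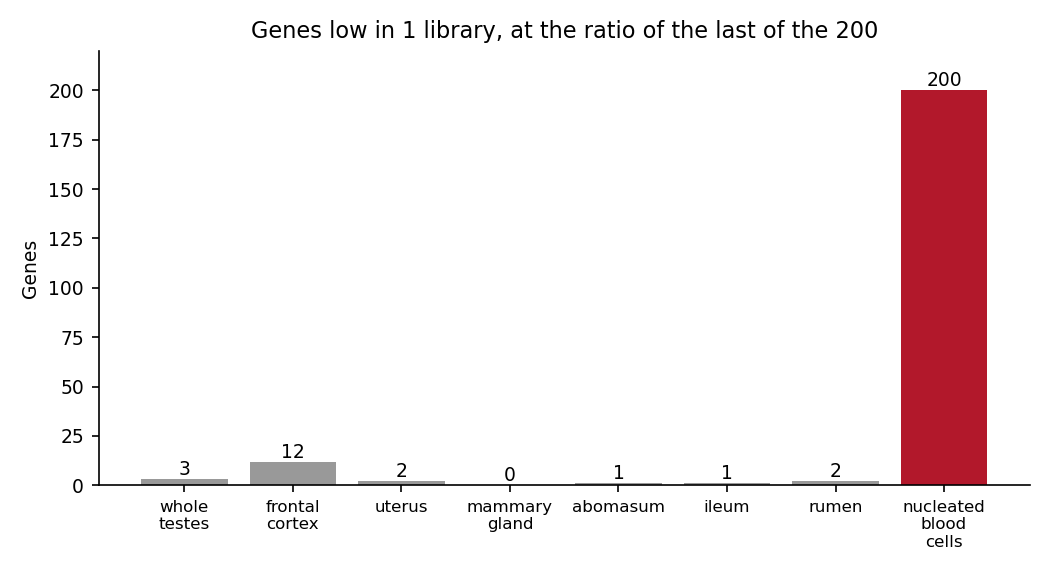
Number of genes (vertical axis) that reached, in 1 library against the 7 others, the ratio of the last of the 200 genes, for each of the 8 libraries (horizontal axis). Nucleated blood cells (red) hold 200 by construction, and the 7 other libraries hold 0 to 12.

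With an FPKM of at least 5 elsewhere, a value of 0 in blood gives a ratio of at least 6, so every filtered gene at 0 in blood entered the list. They made up 0.435% of the filtered genes, while the same filter gave 0 to 2 genes listed at 0 in each of the other libraries. Elsewhere they reached from a lowest level of 5.14 FPKM, in a gene on chromosome 20 (23975106 to 23980445), to 60.9 FPKM in the 665-base gene on chromosome 29. No fold is given for these genes, since the table holds no counts behind a 0. Of the 25 genes, 18 had an interval of their own and 7 shared it with another locus. In 2 of those 7 the other locus had at least 5 FPKM in blood: 16.4 FPKM on chromosome 29 (44644727 to 44657896) and 10.3 FPKM on chromosome 19 (34685357 to 34693036).

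The rule used the lowest solid tissue level of each gene, so levels in the solid tissues are in part tied to it and are given as a description. Their median was 50.2 FPKM in uterus against 23.8 for the other filtered genes, a ratio of 2.11, and 37.2 against 23.8 in mammary gland, a ratio of 1.57. In a list of 400 genes the uterus median was lower, at 32.3 FPKM. The median of the 200 genes was 31.4 against 24.5 in ileum, 35.0 against 29.1 in rumen and 28.2 against 25.4 in abomasum. The 200 genes had the lower median in frontal cortex, with 24.2 against 25.3 FPKM, and in whole testes, with 21.2 against 29.8 FPKM. With an FPKM minimum of 10 the whole testes median of the list was 33.7 FPKM. No value for the other genes was computed in that setting. Above the median of the others lay 146 of the 200 genes in uterus, 136 in mammary gland, 117 in both rumen and ileum, 107 in abomasum, 96 in frontal cortex and 78 in whole testes. Among 2168 other filtered genes whose lowest level lay in the middle range of the list, 8.70 to 20.5 FPKM, the median was 24.7 FPKM in rumen, 24.2 in whole testes, 21.4 in abomasum, 21.1 in ileum, 20.7 in uterus, 20.5 in mammary gland and 20.2 in frontal cortex. Against these genes the 200 had the higher median in frontal cortex (a ratio of 1.20) and still the lower one in whole testes (0.876).

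Of the summed FPKM of all genes, the 200 took up 4.77% in uterus, 4.21% in frontal cortex, 2.96% in mammary gland, 2.53% in ileum, 1.94% in rumen, 1.68% in whole testes and 1.28% in abomasum. In nucleated blood cells they took up 0.0171%. The share in cortex was high although its median was not, and 2 genes of very high level were found there. One lies on chromosome 11 (106244102 to 106250724), with 5814 FPKM in frontal cortex, 1864 in mammary gland, 1244 in whole testes, 182 in uterus, 158 in ileum, 110.2 in rumen, 53.1 in abomasum and 0.987 in blood. Its locus names several transcripts, and it was picked out after its values were seen. The other is the chromosome 18 gene of 4494 FPKM described with the neighbours.

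**Figure D4:**
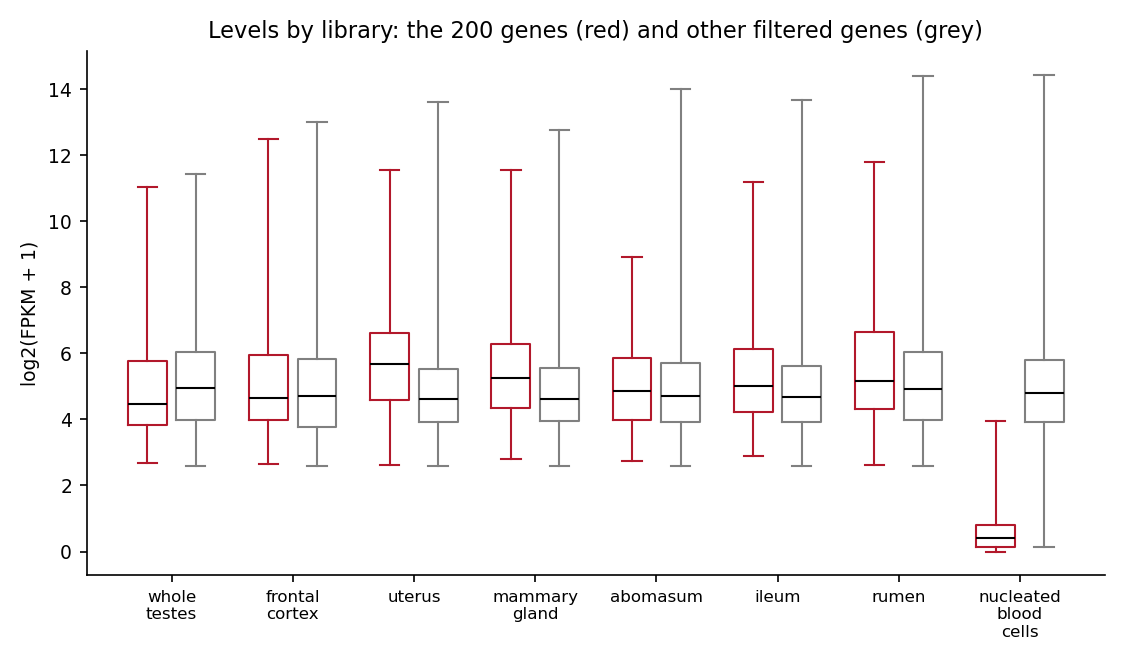
Levels of the 200 genes (red) and of the 5546 other filtered genes (grey) in each of the 8 libraries, as log2(FPKM + 1). Boxes span the quartiles, black lines are medians and whiskers reach the lowest and highest gene. Red lies above grey most clearly in uterus (medians of 50.2 and 23.8 FPKM) and below it in whole testes and, by the rule, in blood.

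Uterus was the library of the highest level for 55 of the 200 genes (27.5%). Over all 5746 filtered genes it was highest for 7.5%, and over the other filtered genes for 6.78%. Mammary gland was highest for 21 genes (10.5%, against 6.21% of all filtered genes) and ileum for 17 (8.5%, against 6%). With the uterus library left out, which also redraws the list, these shares were 21.5% for mammary gland and 14% for ileum, and without rumen that for ileum was 13%. No share over all filtered genes was counted in these settings, so the 6.21% and 6% above are no background for them. Frontal cortex was highest for 34 genes (17.0%, against 16.7%) and abomasum for 20 (10%, against 10.8%), so these shares were near the background. Rumen was highest for 38 genes (19.0%, against 23.5%). Whole testes had the highest level for 15 genes (7.5%), although it was highest for 29.3% of all filtered genes.

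Whole testes was the lowest solid tissue for 53 of the 200 genes (26.5%, against 21.0% of the other filtered genes) and abomasum for 37 (18.5%, against 12.7%). Uterus was lowest for 8 (4.0%, against 12.8%) and mammary gland for 12 (6.0%, against 11.3%). Frontal cortex was lowest for 52 (26%, against 24.3%), ileum for 19 (9.5%, against 7.72%) and rumen for 19 (9.5%, against 10.2%), shares that lay closer to those of the other genes. The lowest solid tissue set the place of each gene in the order, so these counts are tied to the rule.

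**Figure D5:**
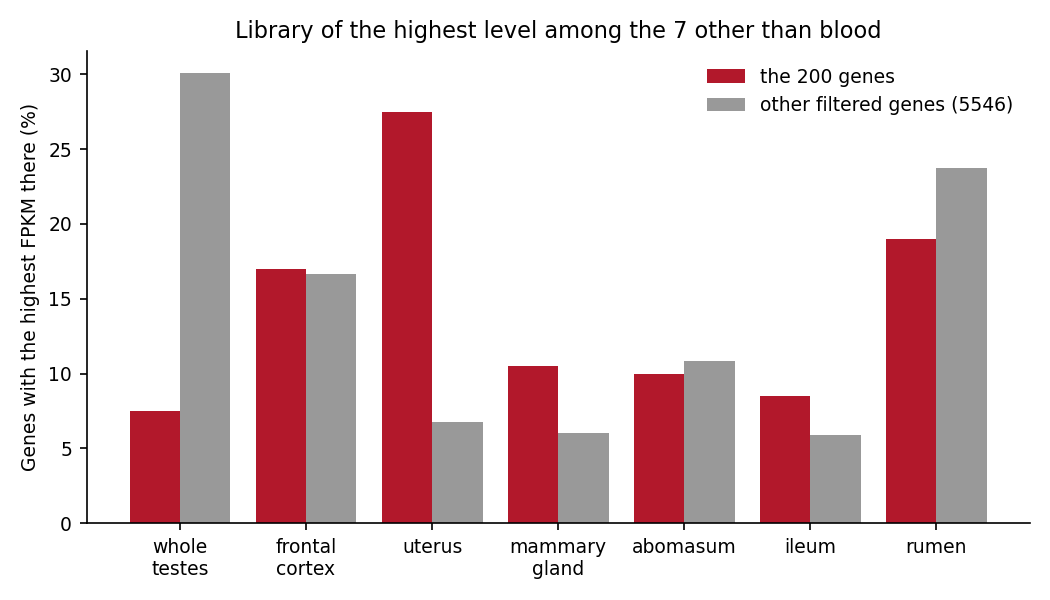
Share of genes (vertical axis, percent) whose highest FPKM among the 7 solid tissue libraries fell in each library (horizontal axis), for the 200 genes (red) and the 5546 other filtered genes (grey). Uterus holds 27.5% of the 200 genes and 6.78% of the others, and whole testes 7.5% and 30.1%.

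Levels in the solid tissues were more uneven in the list than in the other filtered genes. The lowest level, to which the highest is compared here, was also used by the rule. The highest level among the 7 solid tissues was 1.89 to 289 times the lowest, with a median of 6.65, against a median of 3.58 for the other filtered genes. For 69 genes (34.5%) it was at least 10 times the lowest, against 10.9% of the other filtered genes, and for 19 genes it was under 3 times. By the rule every gene had at least 5 FPKM in all 7 solid tissues. The highest FPKM + 1 was at least 2 times the second highest for 60 genes (30%), against 20.4% of all filtered genes. Of these 60, 22 peaked in uterus, 14 in frontal cortex, 11 in rumen, 5 in whole testes, 4 in abomasum, 2 in mammary gland and 2 in ileum. The gene with the widest spread was the last of the list, on chromosome 2 (7317290 to 7357057), with 2293 FPKM in uterus, 430.1 in ileum, 289.7 in abomasum, 227 in mammary gland, 202 in rumen, 51.1 in whole testes, 7.94 in frontal cortex and 0.590 in blood.

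For each solid tissue, 1 gene stood out most from the next tissue. In rumen it was a gene on chromosome 9 (30127786 to 30140793), with 818 FPKM against 62.8 in uterus, 47.9 in frontal cortex, 21.7 in ileum, 13.04 in whole testes, 11.9 in abomasum, 9.52 in mammary gland and 0.247 in blood. In uterus it was a gene on chromosome 4 (11624214 to 11661869), with 1653 FPKM against 152 in ileum, 145 in mammary gland, 131 in rumen, 98.9 in abomasum, 60.3 in whole testes, 8.67 in frontal cortex and 0.427 in blood. In frontal cortex it was a gene on chromosome 16 (49618802 to 49621020), with 656 FPKM against 64.0 in uterus, 48.8 in mammary gland, 26.9 in rumen, 23.6 in ileum, 19.0 in whole testes, 7.78 in abomasum and a value listed at 0 in blood. The FPKM + 1 of these genes was 12.8, 10.8 and 10.1 times that of the next tissue.

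The genes that stood out in the 4 other tissues did so less. Mammary gland led at a gene on chromosome 27 (33227379 to 33300587), with 211 FPKM against 32.04 in frontal cortex, 19.3 in ileum, 13.01 in rumen, 12.3 in abomasum and in whole testes, 7.77 in uterus and 0.481 in blood. Whole testes led at a short gene on chromosome 3 (33768050 to 33770824), with 2099 FPKM against 358 in frontal cortex, 104 in uterus and 64.6 in the mammary library, while the gut libraries had 36.6 (ileum), 25.6 (rumen) and 24.1 FPKM (abomasum) and blood was listed at 0. Ileum led at a gene on chromosome 4 (113564399 to 113567768), with 502 FPKM against 110.3 in mammary gland, 101 in rumen, 98.8 in uterus, 67.0 in frontal cortex, 60.5 in abomasum, 33.7 in whole testes and 1.09 in blood. Abomasum led at a gene on chromosome 19 (17620118 to 17634850), with 167 FPKM against 48.8 in ileum, 27.5 in mammary gland, 24.4 in frontal cortex, 23.6 in uterus, 14.9 in rumen, 9.52 in whole testes and 0.0729 in blood. The tissue ahead had an FPKM + 1 that was 6.41, 5.85, 4.51 and 3.38 times that of the next.

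High levels in every solid tissue were rare. After the leading gene of the order, the highest lowest levels belonged to the chromosome 15 gene of the fifth place, with 159.8 FPKM in uterus, and to a gene on chromosome 6 (74027219 to 74150503). The latter had 481 FPKM in mammary gland, 412 in whole testes, 405 in uterus, 375 in ileum, 266 in abomasum, 166 in rumen, 124 in frontal cortex and 4.34 in blood. Its interval was also shared, with a locus of 27.6 FPKM in blood.

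Levels of the 200 genes went together less closely between solid tissues than those of the other filtered genes. Pearson's r across the 200 genes, on log2(FPKM + 1), was 0.214 to 0.707 over the 21 pairs of tissues, with a median of 0.520. Across the 5546 other filtered genes it was 0.611 to 0.901, with a median of 0.740, and it was higher than in the 200 genes in 21 of 21 pairs. The gap was small in some pairs with whole testes, such as mammary gland (0.616 against 0.621) and ileum (0.604 against 0.632). The closest pair over the 200 genes was uterus and mammary gland (0.707), followed by ileum and rumen (0.681) and mammary gland and ileum (0.680). Frontal cortex was the most apart, with 0.214 to abomasum, 0.250 to uterus, 0.257 to ileum, 0.316 to rumen, 0.450 to mammary gland and 0.474 to whole testes. These are correlations across genes, which are not independent replicates, and each tissue enters with the same single library.

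The 200 genes were spread over 30 chromosomes. Chromosome 5 held 16, chromosome 3 held 15, chromosomes 15 and 18 held 14 each, and chromosomes 1 and 19 held 11 each. As a share of the filtered genes of a chromosome, the list made up 3.48% over the genome, 11.1% on chromosome 27 (6 of 54) and 8.54% on chromosome 15 (14 of 164). The share was 0.985% on chromosome 17 (2 of 203) and 1.36% on the X chromosome (2 of 147).

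The interval of a gene spanned 665 to 293079 bases, with a median of 23519 bases against 23426 for the other filtered genes. Long intervals were more frequent in the list: 37 genes (18.5%) spanned at least 100 kb, against 9.81% of the other filtered genes. Short ones were about as frequent, with 52 genes (26.0%) under 10 kb against 24.3%. Loci that overlap in the table are listed with the same joint interval, and 53 of the 200 genes (26.5%) shared theirs with at least 1 other locus, against 30.7% of the other filtered genes. Among the 147 genes with an interval of their own, 18 (12.2%) spanned at least 100 kb, against 5.77% of such other genes, and the median span was 15533 bases against 17978.

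Some genes of the list lay near one another, although most did not. The median gap to the nearest filtered gene was 27246 bases for the 200 genes and 10012.5 bases for the other filtered genes. Among genes with an interval of their own these gaps were 41486 and 30700 bases. Within 100 kb of 27 of the 200 genes (13.5%) there was another of the 200, whereas 342 of the 5546 other filtered genes (6.17%) lay that near to 1 of the 200. The 27 genes formed 13 groups, of 2 genes each except for 1 group of 3. The genes of 3 of the 12 pairs were highest in the same solid tissue, and those of the 9 other pairs in different ones. How often any 2 genes of the list share their highest tissue was not computed, so nothing is read from this count. The closest pair lies on chromosome 12, where the long gene named above starts 233 bases after the end of another (88876125 to 89009422). The latter had 177 FPKM in uterus, 92.1 in ileum, 69.6 in abomasum, 49.3 in rumen, 43.0 in mammary gland, 28.5 in whole testes, 10.8 in frontal cortex and 0.0947 in blood. Both genes of this pair were highest in uterus, second in ileum and lowest in frontal cortex among the solid tissues.

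Another pair with a like pattern lies on chromosome 29, where the 665-base gene follows at 2352 bases on a gene (44766936 to 44768512) with 422 FPKM in rumen, 82.9 in frontal cortex, 51.3 in whole testes, 46.9 in uterus, then 44.0 in mammary gland, 28.9 in ileum, 6.98 in abomasum and a value listed at 0 in blood. Both were highest in rumen, second in frontal cortex and lowest in abomasum. On chromosome 5 the uterus-high gene named above is followed at 5842 bases by a gene (27054069 to 27082841) with 70.5 FPKM in uterus and 55.5 in mammary gland, then 37.4 in ileum, 23.2 in rumen, 22.6 in abomasum, 21.5 in whole testes, 20.3 in frontal cortex and 0.393 in blood. Both were highest in uterus and second in mammary gland.

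The other pairs differed in their highest tissue, and 3 of these 9 are described. On chromosome 16 the cortex-high gene lies 2866 bases from a gene (49623887 to 49652094) that had 123 FPKM in rumen, 109 in ileum, 27.4 in mammary gland, 18.2 in whole testes, 16.8 in uterus, 13.9 in abomasum, 8.63 in frontal cortex and 0.0599 in blood. Frontal cortex was thus the highest tissue for the former and the lowest for the latter. On chromosome 18 the gene with 254 FPKM in mammary gland is followed by a gene (53040105 to 53042797) with 4494 FPKM in frontal cortex, 2996 in mammary gland, 416 in uterus, 372 in ileum, 246 in whole testes, 85.7 in abomasum, 28.4 in rumen and 0.300 in blood.

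A further pair on chromosome 5 was low in frontal cortex, and 1 of its genes also in whole testes. That gene (21037362 to 21046958) had 487 FPKM in abomasum, 196 in mammary gland, 155 in uterus, 145 in ileum, 115 in rumen, 7.27 in frontal cortex, 6.93 in whole testes and 0.336 in blood. Its neighbour at 32664 bases (21079623 to 21119087) had 1175 FPKM in uterus and 464 in mammary gland, then 187 in ileum, 127 in rumen, 123 in whole testes, 110.0 in abomasum, 15.4 in frontal cortex and 0.641 in blood. The group of 3 lies on chromosome 3, where the testis-high gene is followed by genes at 33805454 to 33846061 and at 33873900 to 33880598. The former had 348 FPKM in whole testes and 285 in cortex, then 134 in uterus, 118 in ileum, 104 in rumen, 62.2 in mammary gland, 62.0 in abomasum and 2.26 in blood. The latter had 66.4 FPKM in rumen, 45.6 in whole testes, 42.0 in frontal cortex, 31.2 in abomasum, 10.3 in uterus, 9.31 in mammary gland, 8.49 in ileum and 0.0899 in blood.

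The nearest filtered gene had a median of 21.3 FPKM in nucleated blood cells, against 25.5 FPKM for the genes nearest to the other filtered genes, and it was under 1 FPKM in blood for 23 of the 200 genes, against 172 of 5540 other filtered genes. The ratio of the lowest other library to blood was at least 2 for 39 nearest genes (19.5%), against 6.53% for those of the other filtered genes. Over genes with an interval of their own these shares were 21.1% and 6.95%. The nearest gene could itself be 1 of the 200, whose ratio and blood level were used by the rule. Such neighbours count in all these values, so nothing is read from them.

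Shared intervals may leave the level of some of the 200 genes uncertain, if reads were divided between the loci of an interval. The values show only the joint interval, not how reads were assigned. Of the 53 genes concerned, 44 shared their interval with a locus that carried an identifier. These were 22% of the 200 genes, against 28.4% of the other filtered genes. In 11 of the 53 a partner locus had at least 5 FPKM in blood. That share was not counted over the other filtered genes, so the 11 are not read as a trait of the list. The highest such partner had 67.6 FPKM in blood, on chromosome 16 (52219417 to 52373541), where the gene of the list had 0.196 FPKM. On chromosome 5 the neighbour at 27054069 to 27082841, with 0.393 FPKM in blood, had a partner with 43.1 FPKM. Whether reads were divided in this way, and what part that had in the low blood values, was not tested.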

How the data were processed

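RNA-Seq of 8 cattle tissues was analysed, with 1 library per tissue, each assigned by its tissue label. According to the study's methods, the authors filtered single-end reads, aligned them to UMD3.1 with TopHat (2.0.13, in the submitters' processing notes) and ran Cufflinks with default parameters. The deposited values are FPKM in a table of Cuffdiff layout that lists 28 pairs of tissues, and 0 values of a locus differed between pairs. The authors' fold changes, test statistics, p-values and q-values for these pairs were not used. Starts in the table count from 0 and are given here from 1.

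The list was built with pandas 2.3.3 by the rule given at the start of the results. With 1 library per tissue no test was run, and no p-value is given. The members and the comparisons were chosen with earlier results of these data known. Named genes were the first 10, the 3 on each side of the end of the list, the 3 with the highest lowest level and the leading gene of each solid tissue. Pathway and white cell marker genes, listed by symbol, were also to be named but could not be matched. Genes named beside these, such as neighbours, were chosen after their values were seen.

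Scaled depth was recovered from loci without an identifier of 88 to 130 bases, using a normal distribution of fragment lengths (mean 200, SD 80 bases, none under 87), as the depth at which 97.7% to 100% of values were whole reads within 0.03. Because Cuffdiff scales libraries, this depth need not equal the mapped total. The steps were tested on simulated data. Alternatives covered the pseudocount, the FPKM minimum, the span, the scaling, the size of the list and each library left out.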

Additional observations from a re-analysis of the deposited data

Results flagged for a closer look

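Loci without an identifier lay outside the list. Of 201 such loci that passed the other filters, 7 (3.48%) reached the ratio of the last of the 200 genes, the same share as the 200 make up of the 5746 filtered genes (3.48%), and 4 of these were listed at 0 in nucleated blood cells. Such loci name no gene, and in the solid tissues each had at least 5 FPKM, above the 3 reads that a 0 would permit. The highest ratio was found on chromosome 19 (55688174 to 55719988), with 231 FPKM in rumen, 197 in ileum, 179 in whole testes, 109.8 in uterus, 71.3 in frontal cortex, 49.6 in mammary gland, 44.7 in abomasum and 1.03 in blood. One of the 7, on chromosome 23 (27076281 to 27196805), shared its interval with 1 of the 200 genes.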

How the results depend on the processing

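No paired analysis was possible because no tissue had a second library and nothing was tested. Of 387 values under other settings, 363 lay within 1.5 times the reported one. Where the setting itself does not show it, the cause was not tested. The list kept 131 of its 200 genes with an FPKM minimum of 10, and 147 to 197 in the other settings that draw 200 genes. Leaving out each solid tissue library kept 164 (frontal cortex) to 196 (mammary gland) genes. With a minimum of 10 the list had 14 genes at 0 in blood and medians of 1.18 FPKM in blood and 33.7 FPKM in whole testes. A pseudocount of 5 gave a blood median of 0.601 FPKM. A list of 100 genes shares 100 by construction, with 16 at 0 in blood, 14 near another member, 27 overlapped by another locus and an ileum median of 49.0 FPKM. A list of 400 genes had medians of 0.966 FPKM in blood and 32.3 in uterus, 12.8% peaking in whole testes, 73 near another member and 115 overlapped. With 1 library left out in turn, the share peaking in mammary gland ran from 10% to 21.5% and that in ileum from 8.0% to 14.0%, both highest without uterus. Without rumen that in ileum was 13%. The share peaking in uterus ran from 21% to 32.5% over the settings that keep the uterus library. Counted under 0.1 or under 1 FPKM rather than at 0, 52 and 162 genes were low in blood. Within 500 kb, 54 genes lay near another member, and within 5 kb of another locus there were 139 genes. Leaving out loci that share an interval, chosen after seeing the data, gave 0 overlapped genes by construction and 12.0% of genes spanning at least 100 kb. The depth limits blood values under 0.250 FPKM over an effective length of 1000 bases.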

Other observations

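Genes too long for the list also included some low in blood. Of 89 genes spanning at least 300 kb that passed the other filters, 7 (7.87%) reached the ratio of the last of the 200 genes. The highest ratio, 22.2, was found on chromosome 8 (571565 to 925955), with 115 FPKM in rumen, 84.6 in ileum, 37.8 in mammary gland, 37.4 in abomasum, 25.4 in frontal cortex, 23.5 in uterus, 22.5 in whole testes and 0.0571 in blood. On chromosome 1 a gene (9607092 to 9921730) had 375 FPKM in frontal cortex, 357 in abomasum, 237 in mammary gland, 209 in uterus, 154 in ileum, 126 in rumen, 87.1 in whole testes and 10.8 in blood. The longest of the 7, on chromosome 18 (9399456 to 10164253), had 47.8 FPKM in whole testes, 8.05 in abomasum as its lowest solid tissue and 0.178 in blood.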
